A study of Mus musculus with 4 samples.

Results

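The genes described here mark the 2 main kinds of dendritic cell. Siglech, Tcf4 and Spib mark the plasmacytoid kind, and Zbtb46, Batf3, Xcr1, Clec9a, Cd209a, Itgax and Id2 the conventional kind. They were chosen by symbol, and all 10 were present among the 28987 genes of the deposited table, each once. Plasmacytoid dendritic cells sense viral nucleic acid and release type I interferon. Conventional dendritic cells take up antigen and present it to T cells, and fall into a cross-presenting type 1 and a type 2 that mainly primes helper T cells. Both kinds arise in bone marrow from progenitors that carry the cytokine receptor FLT3, and the E protein TCF4 and its antagonist ID2 set the choice between the plasmacytoid and the conventional fate.

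Expression was measured by RNA sequencing in 4 libraries of bone marrow cells from C57BL/6 mice, selected for the stem and progenitor receptor c-Kit with CD117 beads. The genotype of the Hif1a-intact group (2 libraries) was MllPTD/WT with Runx1Flox/Flox and Mx1-Cre. The Hif1a-null group (2 libraries, named Hif1anull in their titles) carried Hif-1α Flox/Flox in addition. All 4 thus share a partial tandem duplication of 1 Mll allele and a floxed Runx1 gene, and all 4 titles name them Runx1null. No library with wild-type Mll or without Cre was analysed here. Mx1-Cre is driven by an interferon-inducible promoter and acts in many cell types, so it does not restrict the deletion to stem cells. The sources used here do not give ages, how Cre was induced, or whether each library was made from a different mouse. The p-values therefore reflect the spread among these 4 libraries, and that spread could be technical. The comparison asks which transcripts differ with Hif1a in cells that carry both other lesions. Levels are TPM, a relative abundance scaled for transcript length, so that levels of different genes can be compared. TPM keeps no record of sequencing depth, which is therefore unknown.

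Hif1a itself read 100.3 and 75.2 TPM with Hif1a intact and 98.8 and 113 TPM in the libraries labelled null (limma, adjusted p = 0.479). A value over the whole gene includes exons outside a floxed segment and is no check of the deletion, so every direction below rests on the labels. Runx1, labelled null in all 4 libraries, read 73.6 and 76.6 against 48.4 and 46.7 TPM (limma, adjusted p = 0.0636). Its value over the whole gene is likewise no check of the Runx1 deletion. An effect of that difference in Runx1 and one of Hif1a status cannot be told apart. Kit (127 ± 1.80 against 111 ± 13.5 TPM) and Cd34 (248 ± 4.69 against 192 ± 19.3 TPM; SD, n = 2 each) were present in all libraries. So were transcripts of mature neutrophils, with Ltf, a granule protein gene, at 677 ± 32.7 against 1603 ± 30.6 TPM. In these bulk samples, fewer cells of a type and less RNA per cell cannot be told apart.

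The sequences just upstream of 4 members are shown because Siglech, Spib and Itgax were higher in both Hif1a-null libraries while Cd209a overlapped between the groups. Each is the 250 bases before the RefSeq start (GRCm38.p6), on the strand of the gene: chr7:55767934-55768183 (plus), chr7:44532072-44532321 (minus), chr7:128129300-128129549 (plus) and chr8:3748985-3749234 (minus). Capitals mark E-boxes (CANNTG, the same on both strands), the sequence class bound by E proteins such as TCF4.
Siglech: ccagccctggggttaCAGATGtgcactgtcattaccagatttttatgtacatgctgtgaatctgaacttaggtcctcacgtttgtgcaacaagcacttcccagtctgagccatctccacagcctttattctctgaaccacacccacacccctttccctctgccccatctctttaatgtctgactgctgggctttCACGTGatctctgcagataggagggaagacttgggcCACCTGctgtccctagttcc
Spib: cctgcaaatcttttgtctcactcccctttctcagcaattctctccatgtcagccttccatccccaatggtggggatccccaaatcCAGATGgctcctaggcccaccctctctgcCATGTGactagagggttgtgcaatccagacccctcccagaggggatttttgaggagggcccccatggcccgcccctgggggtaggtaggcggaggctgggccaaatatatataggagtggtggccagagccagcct
Itgax: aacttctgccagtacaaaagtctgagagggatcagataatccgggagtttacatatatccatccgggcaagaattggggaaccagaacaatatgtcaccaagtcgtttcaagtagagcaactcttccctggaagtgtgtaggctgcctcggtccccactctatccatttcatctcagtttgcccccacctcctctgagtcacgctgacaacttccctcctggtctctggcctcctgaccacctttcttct
Cd209a: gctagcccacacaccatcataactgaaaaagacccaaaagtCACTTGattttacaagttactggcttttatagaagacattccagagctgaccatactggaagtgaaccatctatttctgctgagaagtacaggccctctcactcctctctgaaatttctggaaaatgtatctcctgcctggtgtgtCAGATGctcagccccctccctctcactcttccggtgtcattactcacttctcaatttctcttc
Siglech held 3 E-boxes, 235, 56 and 20 bases before the start, Spib 2, Cd209a 2 and Itgax 0. E-boxes were found in 8 of the 9 members with a promoter in the table (Tcf4 was not matched) and in 66.2% of all 32851 promoters of the same length. For Zbtb46, Id2 and Batf3 the RefSeq start lay 35038, 1048 and 567 bases inside the annotated gene, so their windows lie within it. The core that HIF-1 binds (ACGTG, either strand) occurred at 2 places in Siglech, 174 and 56 bases before the start, the second within the E-box CACGTG. It also occurred in Batf3 and Xcr1, giving 3 of 9 members against 16.6% of all promoters. These are letter matches in short windows, and neither a match nor its absence shows what binds there.

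Of the 3 plasmacytoid genes, Siglech and Spib rose and Tcf4 did not pass the test. Siglech, which encodes a sialic acid-binding surface receptor of plasmacytoid cells (ENSMUSG00000051504, GRCm38 chromosome 7, 55768178 to 55778925, plus strand), read 1.72 and 1.41 TPM with Hif1a intact and 15.3 and 14.6 TPM in the Hif1a-null pair. Both Hif1a-null libraries were far above both others, and the group means (1.56 ± 0.222 and 14.9 ± 0.458 TPM, SD, n = 2 each) differed 9.56-fold. On log2(TPM + 1), the scale of all fold changes below, the difference was 2.64 ± 0.14 (standard error, as after ± on every log2 value; limma, adjusted p = 0.00552). That scale understates the change of genes near 1 TPM. Across all genes tested, 7.27% passed at an adjusted p under 0.05 in either direction, 5.25% toward higher and 2.02% toward lower values in the libraries labelled null. Over the 10 members, both Hif1a-null libraries lay above both Hif1a-intact libraries in 7 and below them in 0. Of all genes tested 22.7% lay above, but 4 of the 7 members entered the test only through the Hif1a-null pair, so nothing is read from that count.

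Tcf4, the E protein required for the plasmacytoid fate (ENSMUSG00000053477, chromosome 18, 69343356 to 69689079, plus strand), was at a higher level throughout. It read 20.1 and 17.8 TPM against 33.1 and 30.4 TPM, a 1.68-fold difference of the means. The groups did not overlap, as was so for 55.0% of all genes tested, and the log2 difference of 0.72 ± 0.14 did not pass (limma, adjusted p = 0.0674). It passed under 3 rescalings of the libraries: quantile normalization (adjusted p = 0.0488), median-ratio rescaling (0.0476) and with the 100 most abundant genes left out (0.0459; limma adjusted p in each). Spib, an ETS factor of plasmacytoid and B cells (ENSMUSG00000008193, chromosome 7, 44525993 to 44532071, minus strand), was near 1 TPM. It read 0.598 and 0.594 against 2.37 and 1.80 TPM, a 3.50-fold difference, with a log2 fold change of 0.94 ± 0.15 (limma, adjusted p = 0.0434). That call was lost in 8 of 13 alternatives, among them a filter on the mean of all libraries (0.0521) and leaving out Hif1a-intact replicate 1 (0.0724) or 2 (0.0833).

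Of the conventional dendritic cell genes, 3 were called higher, 2 overlapped between groups and 2 were too low to test. The 3 called entered the test only through the Hif1a-null pair. Of all genes tested in that way 61.8% were called higher, so nothing is read from this split. Zbtb46, a zinc finger factor found in conventional dendritic cells and their committed precursors (ENSMUSG00000027583, chromosome 2, 181387762 to 181459426, minus strand), read 0.472 and 0.291 TPM against 1.86 and 2.01 TPM, a 5.07-fold difference of the means. Its log2 fold change was 1.09 ± 0.14 (limma, adjusted p = 0.0269), a call lost in 2 of 13 alternatives. Itgax, which encodes the integrin CD11c (ENSMUSG00000030789, chromosome 7, 128129547 to 128150657, plus strand), read 0.747 and 0.610 against 2.29 and 2.49 TPM, a 3.52-fold difference. Its log2 fold change was 1.01 ± 0.13 (limma, adjusted p = 0.0275), a call lost in 3 of 13 alternatives, among them leaving out Hif1a-intact replicate 2. For both genes the 2 libraries of each group lay close together. Both entered the test only through the Hif1a-null pair, which by itself sets the groups apart, so nothing is read from that separation.

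Clec9a encodes the receptor with which type 1 cells take up dead cells (ENSMUSG00000046080, chromosome 6, 129408862 to 129424763, plus strand). It read 0.339 and 0.331 TPM against 2.74 and 2.43 TPM, a 7.72-fold difference, with a log2 fold change of 1.42 ± 0.13 (limma, adjusted p = 0.0129). This call was lost in 1 of 13 alternatives. Clec9a shares 184 annotated exon bases, 5.6% of its own, with the neighbouring Clec1b on the same strand, which encodes a platelet receptor. Clec1b, named for this overlap, read 0.984 and 0.592 against 5.001 and 4.37 TPM and rose by a log2 fold change of 1.68 ± 0.17 (limma, adjusted p = 0.0168). Reads from the shared exon cannot be assigned to 1 of the 2 genes with certainty, and their part in the Clec9a value was not tested.

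Spib, Zbtb46, Clec9a and Itgax lay below 1 TPM in the Hif1a-intact pair and entered the test, which asked for 1 TPM in 2 libraries, only through the Hif1a-null pair. They could therefore only rise, and of the 536 genes tested in this way 61.8% were called. With a filter of 1 TPM on the mean of all 4 libraries, Zbtb46, Clec9a and Itgax passed (limma, adjusted p = 0.0323, 0.015 and 0.0326) and Spib did not, where 4.14% of genes were called higher. Their means too reached 1 TPM only through the Hif1a-null pair, so this filter does not remove the selection. These 4 dropped out of the test when 1 of the Hif1a-null pair was removed. Siglech was still tested there, with log2 fold changes of 2.61 without replicate 1 and 2.67 without replicate 2, but it then missed the threshold.

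Batf3 and Xcr1 were hardly detected. Batf3, a leucine zipper factor needed for type 1 cells (ENSMUSG00000026630, chromosome 1, 191097847 to 191108945, plus strand), was at 0 in Hif1a-intact replicate 1 and at 0.381 TPM in replicate 2, against 0.339 and 0.419 TPM, so its groups overlapped. Xcr1, a chemokine receptor gene of type 1 cells (ENSMUSG00000060509, chromosome 9, 123852315 to 123862029, minus strand), read 0.0784 and 0.0382 against 0.164 and 0.153 TPM. With no filter on level neither passed (limma, adjusted p = 0.633 and 0.407). Xcr1 was higher in both Hif1a-null libraries, but the levels of both genes lie under 1 TPM in every library. Whether a difference could be detected there was not assessed.

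Cd209a and Id2 were well expressed and overlapped between the groups. Cd209a, a C-type lectin gene of type 2 and monocyte-derived cells (ENSMUSG00000031494, chromosome 8, 3743397 to 3748984, minus strand), read 19.2 and 11.5 TPM against 15.4 and 12.9 TPM (log2 fold change -0.08 ± 0.28; limma, adjusted p = 0.908). Both Hif1a-null values fell between the 2 Hif1a-intact values. Id2, the inhibitor of E proteins that favours conventional over plasmacytoid cells and also acts in NK cells (ENSMUSG00000020644, chromosome 12, 25093799 to 25097140, minus strand), read 51.2 and 69.0 against 56.1 and 55.6 TPM (log2 fold change -0.09 ± 0.19; limma, adjusted p = 0.832). Here too the wider spread was within the Hif1a-intact pair.

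**Figure D1:**
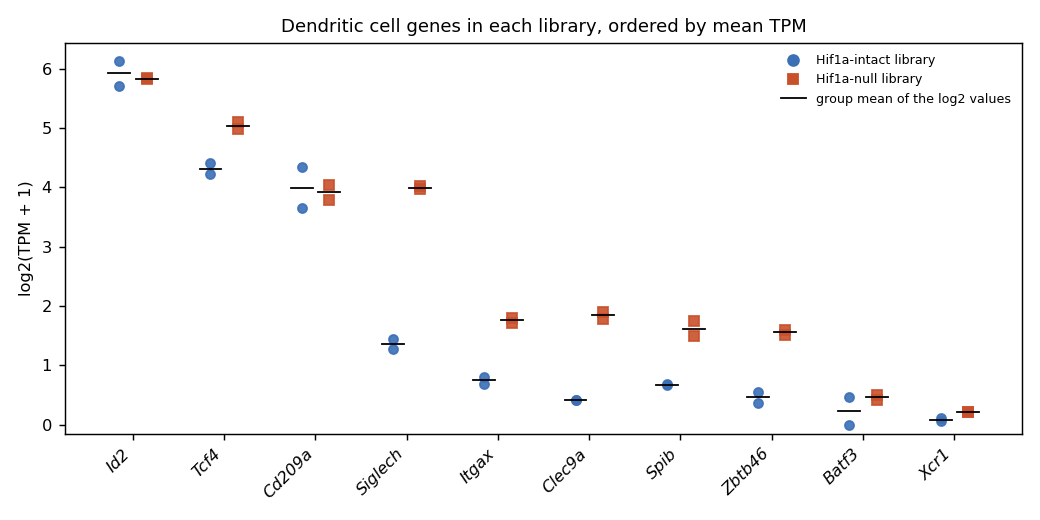
Levels of the 10 genes as log2(TPM + 1) in each library (points; circles Hif1a-intact, squares Hif1a-null; short lines, group means of the log2 values). Siglech moves from 1.41 to 1.72 TPM up to 14.6 to 15.3 TPM, while Id2, Cd209a and Batf3 overlap between the groups.

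**Figure D2:**
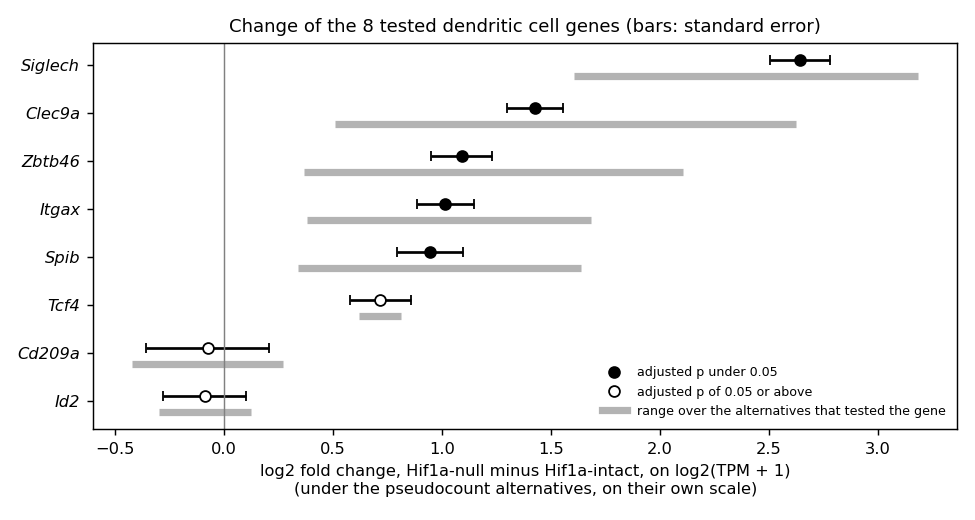
Log2 fold change of the 8 tested genes with its standard error (points and bars; filled where the adjusted p is under 0.05) and the range over the alternative settings that tested the gene (grey). Siglech has the largest value of the 8. The points of Cd209a and Id2 lie just below 0, and their grey ranges reach to both sides of it.

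In order of level, Id2 and Tcf4 led in both groups. In the Hif1a-intact libraries Id2 (60.1 ± 12.6 TPM) was followed by Tcf4 (19.0 ± 1.68 TPM) and Cd209a (15.3 ± 5.44 TPM), whose ranges overlapped, and then by Siglech at 1.56 TPM. In the Hif1a-null libraries Siglech (14.9 ± 0.458 TPM) overlapped Cd209a (14.1 ± 1.80 TPM). Clec9a, Itgax, Spib and Zbtb46 followed at 2.59, 2.39, 2.08 and 1.94 TPM, and each neighbouring pair in that order overlapped. Over all libraries, Id2 was above 89.9% of the genes detected in any library, Tcf4 above 79.1%, Siglech above 61.8% and Xcr1 above 22.1%.

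Of the further genes of plasmacytoid cells 1 passed the test. As 7.27% of all genes tested passed, nothing is read from that count. Of 20 measured, 15 were tested, and 1 rose, 0 fell and 14 did not pass. Of the 15, 5 were higher at an unadjusted limma p under 0.05 (Ly6d, Tlr7, Atp1b1, Bcl11a and Irf7). Another 3 were lower at that level (Pld4, Zeb2 and Lag3). The median log2 fold change was -0.04 against -0.06 over all genes tested. The gene that rose was Ly6d, a surface antigen of plasmacytoid and early B-lineage cells (1.52 ± 0.0128 against 10.4 ± 1.51 TPM, a log2 difference of 2.17; limma, adjusted p = 0.00842). Irf8, a factor needed for type 1 cells and abundant in plasmacytoid cells, read 48.0 and 63.5 against 57.0 and 50.4 TPM. Unc93b1, the chaperone of endosomal Toll-like receptors, read 110 and 143 against 89.7 and 92.3 TPM, Cbfa2t3, a co-repressor, 33.3 and 92.3 against 24.96 and 28.4 TPM, and Runx2, a relative of Runx1, 29.2 and 38.6 against 25.4 and 25.01 TPM. Pld4, an endosomal exonuclease abundant in plasmacytoid cells, was lower in both Hif1a-null libraries (34.5 and 26.2 against 14.3 and 14.0 TPM) and missed the threshold (limma, adjusted p = 0.052). Tlr7 was higher in both (12.3 and 6.66 against 29.8 and 27.5 TPM) and also missed the threshold (limma, adjusted p = 0.0659). The count was 7 without Hif1a-intact replicate 1, 4 without Hif1a-intact replicate 2 and 0 without either Hif1a-null library. Of the low genes, Cox6a2 was at 0 in the Hif1a-intact pair against 0.818 and 0.936 TPM, and Klk1 was listed at 0 in all 4.

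Of the further type 1 and type 2 genes, 1 of each list rose and 1 type 2 gene fell. Over all genes tested, 5.25% were called higher and 2.02% lower. Of 12 measured type 1 genes 5 were tested, and 1 rose: Snx22, a sorting nexin gene (0.151 ± 0.0416 against 1.18 ± 0.170 TPM; limma, adjusted p = 0.0361), again tested only through the Hif1a-null pair. That call was lost without either Hif1a-intact library (adjusted p = 0.0536 and 0.0674). Wdfy4, needed for cross-presentation, read 71.9 and 75.7 against 54.7 and 53.9 TPM, and Naaa, a lysosomal amidase gene, 13.7 and 14.3 against 11.2 and 13.9 TPM. Nfil3 read 12.9 and 10.8 against 6.86 and 7.67 TPM and Bcl6 9.68 and 9.54 against 7.33 and 7.15 TPM, and none of these 4 passed. The median of the 5 was -0.36, and it was 0.16 over the 10 genes tested with a filter of 0.1 TPM and 0.09 over all 12 with no filter. Cadm1, Tlr3 and Itgae, further markers of type 1 cells, stayed under 1 TPM in all libraries.

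Among 12 measured type 2 genes 8 were tested, with 1 higher, 1 lower and a median of -0.01. Irf4, a factor of type 2 cells and of lymphocytes, read 0.297 and 0.440 against 2.77 and 2.85 TPM (a log2 difference of 1.48 ± 0.13; limma, adjusted p = 0.0127) but was tested only through the Hif1a-null pair. Mgl2, a galactose-binding lectin gene, fell from 21.3 ± 0.0409 to 12.3 ± 0.0511 TPM (limma, adjusted p = 0.0449), a call lost in 10 of 16 alternatives, among them leaving out any 1 library. Mgl2 has a near-identical stretch with Clec10a, so reads could be split between them, and Clec10a read 11.5 and 10.7 against 12.1 and 9.24 TPM. Sirpa, which encodes the type 2 marker CD172a, read 52.4 and 62.3 against 55.1 and 56.3 TPM. Notch2 and Cd209c read 16.7 ± 1.37 and 14.8 ± 1.88 TPM in the Hif1a-intact group and 13.4 ± 0.0398 and 15.1 ± 2.29 TPM in the Hif1a-null group. Without Hif1a-intact replicate 2 the list's count was 1, and without either Hif1a-null library 0.

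Antigen presentation and migration genes had 3 of 12 tested members higher, 0 lower and a median log2 fold change of 0.55. Over all genes tested, 5.25% were called higher and the median was -0.06. Ly75, which encodes the antigen uptake receptor DEC-205, rose from 5.51 ± 0.203 to 20.5 ± 1.49 TPM (by 1.72 on the log2 scale; limma, adjusted p = 0.0094). Cd74, the invariant chain of MHC class II, rose from 41.2 ± 3.44 to 89.9 ± 2.89 TPM (limma, adjusted p = 0.0249). Cd83, an activation marker, rose from 0.517 ± 0.123 to 2.13 ± 0.0548 TPM and was tested only through the Hif1a-null pair (limma, adjusted p = 0.027). The class II chain gene H2-Ab1 read 210 and 347 against 282 and 330 TPM and H2-Aa 57.3 and 94.2 against 117 and 119 TPM. H2-Eb1, a further class II chain gene, read 8.44 and 9.99 against 16.4 and 17.2 TPM (limma, adjusted p = 0.0562). H2-DMa and H2-DMb1, of the peptide-loading chaperone H2-DM, lay the other way and did not pass (limma, adjusted p = 0.292 and 0.0985). H2-DMa read 60.6 and 44.96 against 33.1 and 41.6 TPM and H2-DMb1 7.86 and 9.82 against 5.04 and 3.56 TPM. H2-DMb1 has a near-identical stretch with H2-DMb2, which overlapped between the groups (10.96 and 7.94 against 9.26 and 10.5 TPM). H2-DMa has such a stretch with Brd2 (66.7 and 104.9 against 52.3 and 47.8 TPM). Reads could be split within each of these pairs. Dpp4 read 34.7 and 19.8 against 12.2 and 15.6 TPM, and Ccr7, the receptor that guides migrating dendritic cells, was under 0.4 TPM in all libraries. Without either Hif1a-null library 0 of the 11 members then tested passed, with medians of 0.66 and 0.39.

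Growth factor receptors and signalling genes of dendritic cell development lay mostly below 0. Of 14 measured and tested, 0 rose, 1 fell and 13 did not pass, where 7.27% of all genes tested passed. At an unadjusted limma p under 0.05, 0 of the 14 were higher and 4 lower, the gene that fell among them. The median was -0.36. In 11 of the 14 both Hif1a-null libraries were below both Hif1a-intact libraries, as was so for 32.3% of all genes tested. Flt3, the receptor of the common dendritic cell progenitors, was not among these (31.8 and 18.7 against 32.1 and 31.1 TPM). The gene that fell was Il3ra, the alpha chain of the interleukin-3 receptor (4.52 ± 0.424 against 2.05 ± 0.159 TPM; limma, adjusted p = 0.0435), a call lost in 10 of 15 alternatives, among them leaving out Hif1a-intact replicate 2 (0.0686) or either Hif1a-null library (0.434 and 0.555). Stat3, Ifnar2, Gfi1, Myc and Csf2rb, the most abundant of the rest, averaged 276, 272, 73.2, 66.8 and 46.8 TPM in the Hif1a-intact group and 198, 204, 49.99, 53.7 and 42.7 TPM in the Hif1a-null group.

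**Figure D3:**
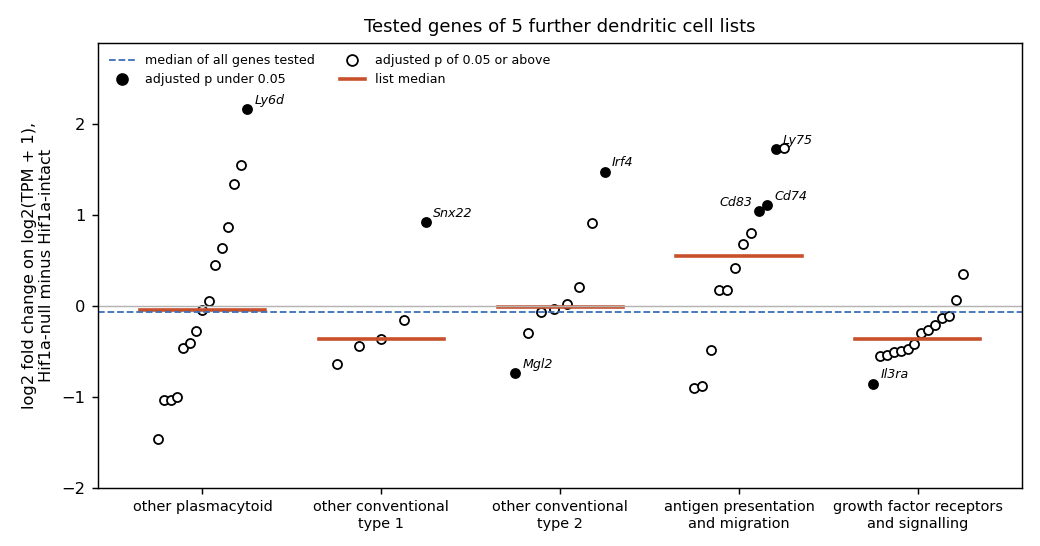
Log2 fold change of each tested gene (points, filled and named where the adjusted p is under 0.05) in 5 further lists, with the list medians (thick lines) and the median of all genes tested (dashed). The medians run from -0.36 (type 1, and receptors and signalling) to 0.55 (antigen presentation and migration).

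Within the families of single members the change was uneven. Of the E proteins and their ID inhibitors, 6 of 7 were tested and 0 passed (limma; 2 were higher at an unadjusted p under 0.05). The count was also 0 with any 1 library left out and was 1 under quantile normalization, median-ratio rescaling, protein-coding genes only and with the 100 most abundant genes left out. Tcf4 and Id3 lay higher in both Hif1a-null libraries, Id3 at 1.05 and 0.830 against 4.55 and 2.73 TPM (limma, adjusted p = 0.0645). Tcf3 (13.3 ± 1.25 against 14.8 ± 1.08 TPM), Tcf12 (14.4 ± 1.80 against 13.9 ± 0.335 TPM) and Id1 (25.9 ± 12.1 against 19.2 ± 0.927 TPM) overlapped between groups. Of the Spi factors, Spi1 (PU.1), at 137 and 156 against 130 and 147 TPM, was far above Spib, while Spic read 0.520 and 0.883 against 1.78 and 1.49 TPM (limma, adjusted p = 0.127) and was likewise tested only through the Hif1a-null pair. Of the integrins that pair with CD18, Itgam (CD11b) read 244 and 384 against 367 and 430 TPM and Itgal (CD11a) 44.9 and 43.2 against 45.9 and 45.9 TPM, both well above Itgax, and Itgb2, CD18 itself, 157 and 158 against 140 and 147 TPM. Of the BATF and IRF factors, 7 of 9 were tested, and Irf4, described above, rose while Irf5 fell from 19.4 ± 1.71 to 9.33 ± 1.21 TPM (limma, adjusted p = 0.043), a call lost in 11 of 16 alternatives, among them leaving out any 1 library. Irf7, the interferon factor of plasmacytoid cells, read 9.44 and 3.27 against 14.8 and 17.1 TPM and did not pass (limma, adjusted p = 0.198).

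Siglec receptors, the family of Siglech, had 4 of 5 tested members called, 3 higher (Siglech among them) and 1 lower. The share called over all genes tested was 7.27%. Siglece, an inhibitory receptor gene of myeloid cells, read 0.597 and 0.967 against 11.7 and 11.2 TPM, with a log2 fold change of 2.81 ± 0.16 (limma, adjusted p = 0.00644), and was tested only through the Hif1a-null pair. Cd33, a myeloid marker, read 5.03 and 4.69 against 25.2 and 26.8 TPM, with a log2 fold change of 2.20 ± 0.13 (limma, adjusted p = 0.00655). Siglecf, known from eosinophils, fell from 30.6 and 24.5 to 7.88 and 7.91 TPM (a log2 difference of -1.67 ± 0.16; limma, adjusted p = 0.0149). Siglecg, known as an inhibitory receptor of B cells, read 19.6 and 18.1 against 25.1 and 18.3 TPM. Siglec1, the sialoadhesin of macrophages, and Cd22 and Siglec15 were under 1 TPM throughout. Siglecf, Siglecg, Cd33 and Siglece are neighbours on chromosome 7 between 43351341 and 43660161, so genes of 1 cluster changed in opposite directions, and Siglech lies apart on the same chromosome. Without either Hif1a-null library 0 of the 4 members then tested passed.

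**Figure D4:**
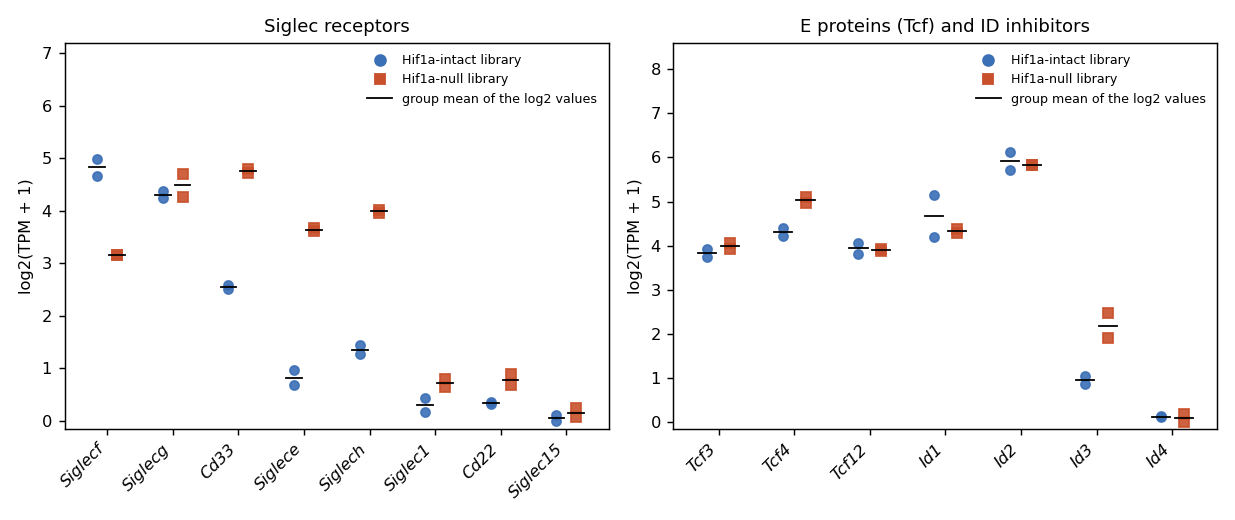
Levels as log2(TPM + 1) in each library for the Siglec receptors (left) and the E proteins with their ID inhibitors (right); circles Hif1a-intact, squares Hif1a-null, short lines group means of the log2 values. Siglech, Siglece and Cd33 are higher and Siglecf lower in both Hif1a-null libraries, while Id2, Id1, Tcf3 and Tcf12 overlap between the groups.

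Several of these genes are shared with other blood lineages, whose markers moved in the same libraries. Spib, Tcf4, Irf4 and Ly6d are also expressed in B-lineage cells. B-lineage markers rose in 10 of 11 tested genes of 13 measured, and their summed level was 18.5 to 22.2 TPM in the Hif1a-intact and 242 to 245 TPM in the Hif1a-null libraries, with Rag1 and Igll1 listed at 0 in both Hif1a-intact libraries. NK and T cell markers rose in 8 of 8 tested genes of 12, with sums of 17.2 TPM in each Hif1a-intact library and 105 to 107 TPM in the Hif1a-null libraries, and with Gzma, Prf1 and Tbx21 at 0 in both Hif1a-intact libraries. NK cells also express Id2 and Itgax. Of these, 8 B-lineage and 5 NK and T genes were tested only through the Hif1a-null pair. Over all genes tested, 5.25% were called higher and 2.02% lower. Monocyte and macrophage markers had 1 of 10 tested higher (Ccr2) and 2 lower (Adgre1 and Cd68), with sums of 277 to 284 and 297 to 304 TPM. Neutrophil markers rose in 7 of 12, with sums of 26659 to 30919 and 38255 to 39514 TPM. Erythroid markers rose in 8 of 8, 2 of them tested only through the Hif1a-null pair, with sums of 74.9 to 117 and 6470 to 6978 TPM. Stem and progenitor markers had 1 higher (Hlf) and 1 lower (Gata2) of 9 tested, with sums of 434 to 451 and 378 to 384 TPM. The part of these cell types in the values of the dendritic cell genes was not tested. Set against the label of dendritic cell genes, the markers of both kinds were mixed. Of the plasmacytoid markers, Siglech, Tcf4, Irf8, Irf7, Bst2, Tlr7, Tlr9, Ly6d and Runx2 were above 1 TPM in every library. Ccr9, Klk1, Cox6a2 and Pacsin1 were under 1 TPM in every library. Of the conventional markers, Id2, Cd209a, Flt3 and H2-Ab1 were above 1 TPM in every library. Xcr1, Batf3 and Cadm1 were under 1 TPM in every library, and Ciita only in Hif1a-intact replicate 1. Spib, Zbtb46, Itgax, Irf4 and Clec9a were above 1 TPM in both Hif1a-null libraries and in neither Hif1a-intact library.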

How the data were processed

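RNA from c-Kit-selected bone marrow cells was sequenced in 4 libraries, 2 per genotype. The authors deposited a table of TPM values with a row per Ensembl gene. The submitters' processing notes name kallisto and the mm10 build, and no source used here gives its version, transcript set or strand setting. The unit was read from the values, whose columns sum to between 955562 and 963135. kallisto divides reads between similar transcripts by estimation, and a 0 can be a failed estimate, so no fold is given where a library is at 0.

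Symbols and coordinates came from GENCODE vM21 (GRCm38, the same assembly as mm10) for 27458 of 28987 genes. Groups came from the titles. log2(TPM + 1) values were compared with limma 3.58.1 (R 4.3.3; lmFit, then eBayes; two-sided) in the 11909 genes that reached 1 TPM in 2 or more libraries. P-values were adjusted over all of these by Benjamini-Hochberg and called under 0.05. Differences are given as Hif1a-null minus Hif1a-intact; ± follows a mean TPM with the SD and a log2 fold change with the standard error. An exact permutation test of 2 against 2 cannot go below p = 0.333 and was not used. Alternatives were 2 other pseudocounts, 4 filters, 3 rescalings, 2 variance models, protein-coding genes only and each library left out in turn, 16 in all.

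The members and lists were chosen with earlier results of these data known. Of 171 list genes 170 were measured, and Flt3l was not analysed here. All members were named, with up to 8 genes per further list past the threshold by smallest p, up to 5 others by highest mean TPM, and any gene of the lists of 9 or fewer. Cox6a2, Klk1, Cadm1, Tlr3, Itgae, Ccr7, H2-DMb1, Flt3, Clec1b, Prf1 and Tbx21 were named after their values were seen. So were Tlr7, Tlr9, Bst2, Ccr9, Pacsin1, Ciita, Atp1b1, Bcl11a, Zeb2, Lag3, H2-DMb2 and Brd2. A blastn 2.17.0 search of annotated transcripts for copies (95% identity or more, over 100 bases and 50% of the shorter transcript) found none for a member. Promoters are RefSeq's (GRCm38.p6). Plots used matplotlib 3.10.9 under Python 3.11.15.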

Additional observations from a re-analysis of the deposited data

How the results depend on the processing

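With 2 libraries a group the spread is poorly known. No paired analysis was possible because the labels give no shared replicate numbers. Of the 8 members tested, 5 were called in the main analysis, beside 7.27% of all genes tested. As 4 were tested only through the Hif1a-null pair, where 61.8% of genes were called, nothing is read from that count. The count was 1 with a pseudocount of 5, 1 with a filter of 5 TPM (4 members tested), 3 with quantile normalization and 4 to 6 under the other 9 settings that kept all libraries. Leaving out 1 library gave 0 to 4, and 0 without either Hif1a-null library, where 4 members were tested and 1 or 2 had an unadjusted p under 0.05 (limma). Siglech was called in all 12 settings that kept every library. No called member changed sign, as its non-overlapping groups fixed. Over all genes, 866 were called (625 higher, 241 lower). With a filter of 5 TPM 493 were called (332 higher), with no filter 568 (138 lower), and with a pseudocount of 5 399 were higher. Leaving out 1 library gave 0 (without Hif1a-null replicate 2, with 958 at an unadjusted p under 0.05) to 1019 called, 0 to 731 higher and 0 to 288 lower. Of the further list genes 50 were called, and 0 to 54 with 1 library left out. Calls were 72.2% higher in the main analysis and 64.0% with quantile normalization. Among lists whose main median lay further from 0 than the median standard error of their genes, medians of 3 changed sign. Type 1 genes did so with a filter of 0.1 TPM (0.16) and no filter (0.091), where more low genes were tested. Spi factors (main 0.64) did so with a filter of 5 TPM (-0.079) and without Hif1a-null replicate 2 (-0.17), each with 1 gene tested. With 1 library left out, the highest median of the Spi factors was 0.79. Stem and progenitor markers (main -0.16) did so with filters of 0.1 TPM (0.012) and 5 TPM (0.082) and with none (0.012). Sign changes of lists with a main median nearer 0 were not counted. TPM holds no read counts, so the depth behind genes near or under 1 TPM is unknown.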
